A study of Homo sapiens with 24 samples.

Results

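The comparison described here asks what arsenic trioxide (ATO) added to gene expression in HL-60 cells that also received all-trans retinoic acid (ATRA). HL-60 is an acute myeloid leukaemia line that the labels call a promyeloblast of wild-type genotype, and it is known to lack the PML-RARA fusion of acute promyelocytic leukaemia (APL). The combination cells received ATRA together with ATO for 48 h (3 libraries), and they are set against cells that received 1 µM ATRA alone for 48 h (3 libraries). These 6 libraries were chosen by their labels from 24 in all, and every gene was compared. The other HL-60 groups used below received 0.8 µM ATO alone for 48 h or were untreated (3 libraries each). NB4, a line with the PML-RARA fusion, was given the same 4 treatments, and its combination and ATRA groups (3 libraries each) are used for comparison. Every culture was grown in RPMI-1640 medium with fetal bovine serum. The labels give the doses for the single agents and do not repeat them for the combination. The series' title concerns the DNA damage response of APL cells under both drugs, and HL-60 is its non-APL line.

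ATRA is the ligand of the retinoic acid receptors and drives promyelocytic cells towards the granulocyte. Trivalent arsenic binds closely spaced protein thiols. It thereby releases NRF2, the transcription factor of the antioxidant response, from its inhibitor KEAP1, and it displaces zinc that activates MTF1, the transcription factor of the metallothionein genes. In APL it is best known for causing the degradation of PML-RARA, a target that HL-60 does not have.

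The 3 combination libraries held 37811652 to 51771732 counts and the 3 ATRA libraries 46761997 to 57795273 counts. Levels are given as CPM (counts per 1000000 counts), with library sizes scaled by the trimmed mean of M-values (TMM). A gene at 0 in a library may therefore still have been present at up to 0.0519 to 0.0793 CPM of the unscaled library, the level of 3 counts, a limit that covers counting error only. That limit takes each count as a separate fragment, and it would be higher if both mates of a pair were counted. Combination replicate 2 stood apart: the chi-square per degree of freedom between libraries was 25.9 and 18.4 for its pairs, against 5.68 for combination replicates 1 and 3 and 4.77 to 6.08 between ATRA libraries. The labelled cell type was checked against its markers. MPO was present at 62.5 to 82.5 CPM with the combination and 298 to 337 CPM with ATRA, and SPI1 at 178 to 210.4 CPM with the combination and 226 to 229 CPM with ATRA. The globin genes, PF4, MS4A1, MRC1, COL1A2 and KRT19 were at 0 in all of the 6 libraries.

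ATO changed the expression of 6982 of 15895 genes tested (43.9%; edgeR quasi-likelihood test, Benjamini-Hochberg adjusted p below 0.05). Of these, 3498 (22% of the genes tested) were higher with the combination than with ATRA and 3484 (21.9%) were lower. Most of the differences were small: 64.7% of the called genes differed by less than 1.5-fold, and 1219 (7.67% of the genes tested) differed at least 2-fold, of which 583 (3.67%) were higher and 636 (4%) lower. The median over all tested genes was a log2 fold change of -0.014. With libraries scaled by their sizes alone, 3096 genes were higher and 3903 lower, so the even split is relative to the TMM scaling. The 3 combination libraries lay all above or all below the 3 ATRA libraries for 8091 genes (50.9%). Among protein-coding genes 3271 were higher and 3149 lower of 12406, and among the remaining 3489 genes 227 were higher and 335 lower. Without combination replicate 2 there were 7422 called genes, 3599 higher and 3823 lower. In RNA from whole cultures, fewer cells of a kind and less RNA per cell cannot be told apart.

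The GC content of a gene's longest annotated transcript moved with the difference. Across 15723 genes, Spearman's rho between the log2 fold change and GC content was -0.31 (-0.38, -0.12 and -0.30 within replicates 1, 2 and 3), where genes are not independent replicates. Each library's deviation from the HL-60 mean had a rho with GC content of -0.31, -0.030 and -0.25 in combination replicates 1, 2 and 3. In the other HL-60 libraries this rho was -0.10 to 0.22. By this measure replicates 1 and 3 lay outside the range of the other groups and replicate 2 within it. Counts without replicate 2 therefore keep the libraries with the strongest GC trend. Among genes in the lowest of 5 equal bins of GC content 41.4% were higher and 8.55% lower, and in the highest bin 9.92% were higher and 37.8% lower. For genes at least 2-fold different, 1.65% of the lowest bin and 7.28% of the highest were lower, while the share that was higher stayed between 3.31% and 4.13%. When each library was corrected for its own trend with GC, an alternative chosen after the data had been seen, 6776 genes were called (3263 higher and 3513 lower). Of the genes that differed at least 2-fold, 96.1% were called in the same direction after that correction, and of those that differed by less than 1.5-fold, 67.3%. The part of GC content in the smaller differences was not tested further. Called genes described below kept their sign under the correction unless a lost call is stated. Their sizes changed in both directions, for instance from 0.46 to 0.22 for CDK1, 0.53 to 0.30 for NBN and 1.97 to 2.29 for BCL3. Among the genes described below as not called, SRXN1, TKT, DNAJB1, RARA, CYP26B1, CCL5, RRM2, ATM and BAX were called after the correction, with the values given there.

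**Figure D1:**
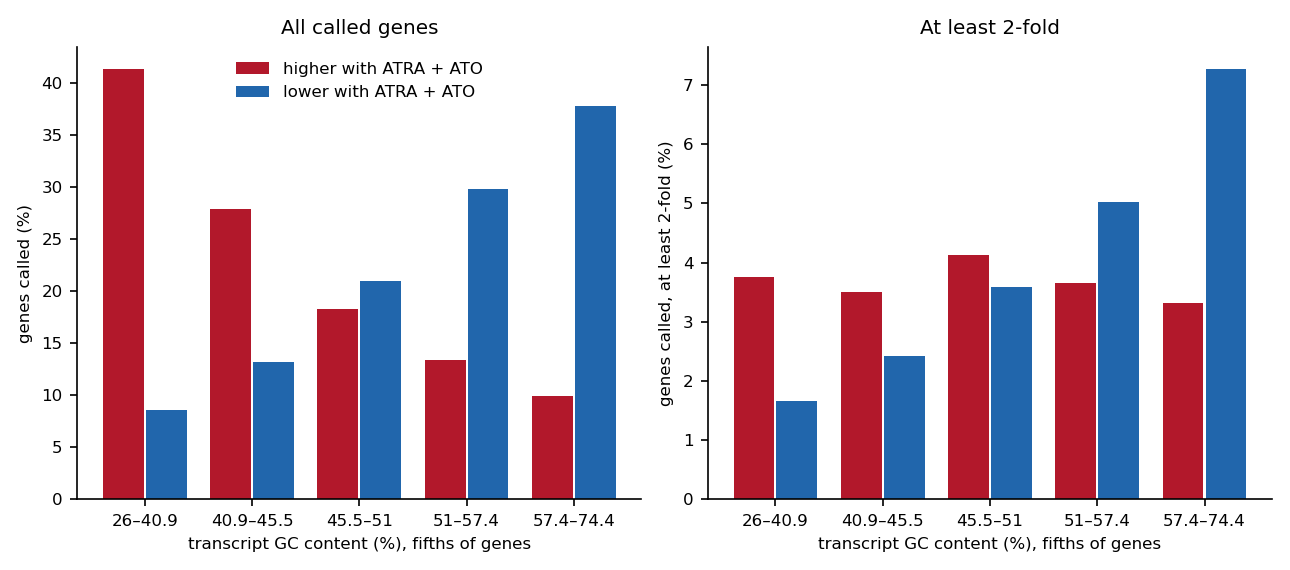
Share of genes higher (red) or lower (blue) with ATRA + ATO than with ATRA in HL-60, as a percentage of the genes in each of 5 equal bins of transcript GC content (x axis, %), for all called genes (left) and for those at least 2-fold different (right). Among all called genes the higher share is 41.4% in the first bin and 9.92% in the last, and the lower share is 8.55% and 37.8%.

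The largest rise of a protein-coding gene by the naming rule was that of HMOX1, and other genes of the oxidative stress response rose with it. HMOX1 (haem oxygenase 1, ENSG00000100292, chr22:35380361-35394214 in GRCh38), which breaks down haem, had 819.6, 1006 and 912 CPM in combination libraries, against 8.20, 7.96 and 6.78 CPM in ATRA libraries. The groups were far apart and the log2 fold change was 6.90 ± 0.094 (SE; adjusted p = 6.4e-23), a 119-fold rise. FTH1, the ferritin heavy chain that stores iron, had 6329, 7153 and 6668 CPM with the combination and 781, 841 and 804 CPM with ATRA (log2 3.05 ± 0.054). SQSTM1, which encodes the autophagy receptor p62, had 3213, 3664 and 3394 CPM with the combination and 505, 515 and 502 CPM with ATRA (log2 2.75 ± 0.059). In each of these genes the lowest combination library was several times the highest ATRA library, as the plot of CPM in each HL-60 library shows.

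**Figure D2:**
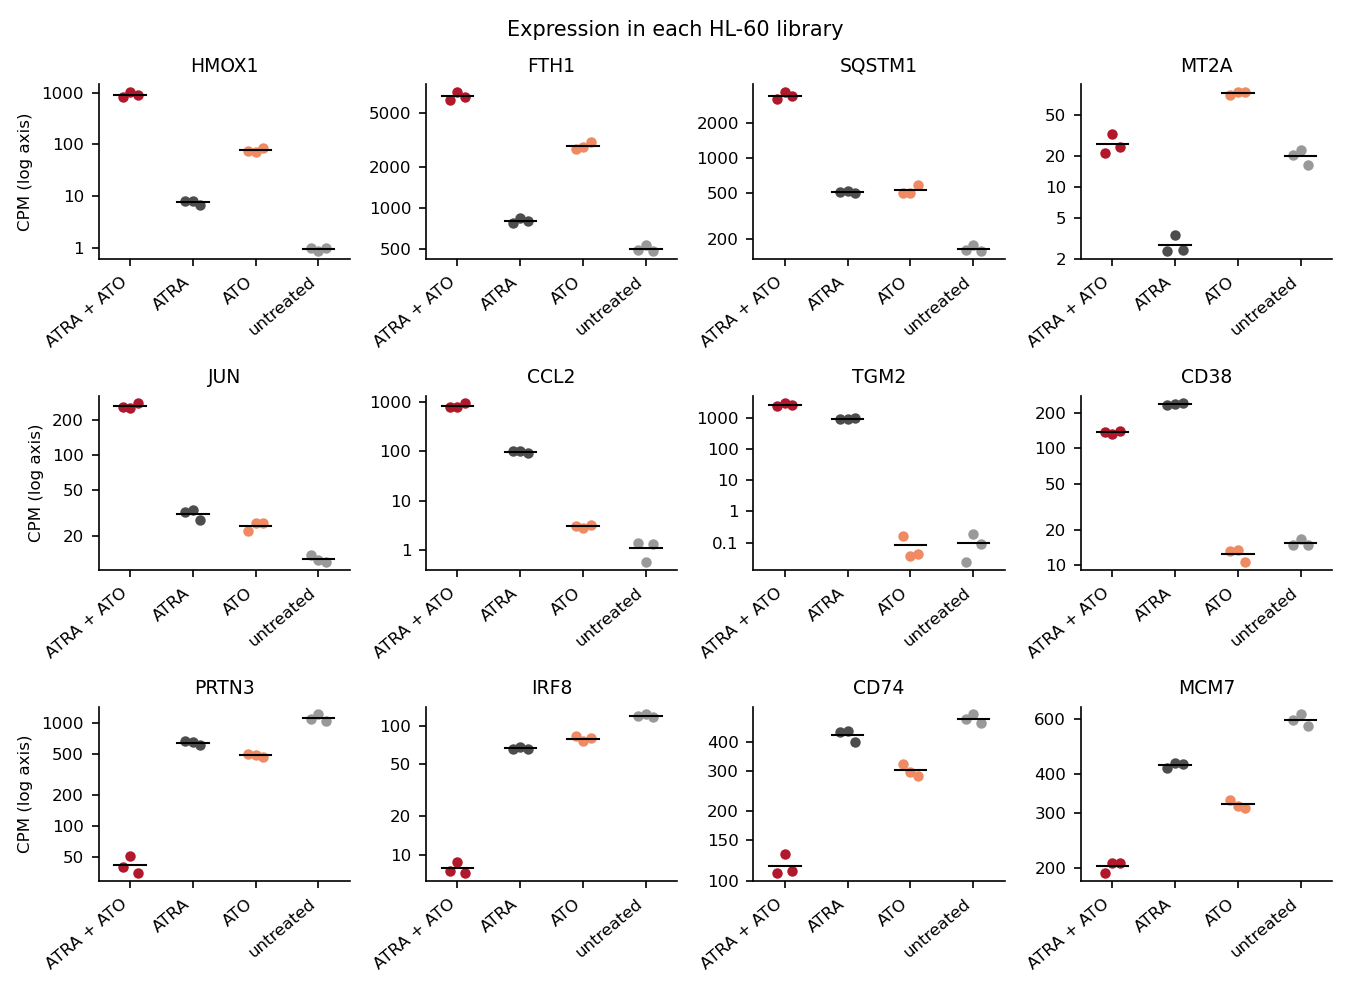
CPM (log axis) of 12 genes in each HL-60 library for ATRA + ATO, ATRA, ATO and untreated cells; points are libraries and bars are means of 3. HMOX1, FTH1, SQSTM1, MT2A, JUN, CCL2 and TGM2 are higher in every ATRA + ATO library than in every ATRA library, and CD38, PRTN3, IRF8, CD74 and MCM7 are lower.

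Of 31 NRF2 target genes tested, 23 rose and 0 fell, with a median log2 fold change of 0.81. Without combination replicate 2 the counts were 23 and 1. NQO1, a quinone reductase, had 328 ± 11.1 CPM with the combination and 38.3 ± 2.18 CPM with ATRA (SD, n = 3 each; log2 3.10 ± 0.061). GCLM, the modifier subunit of the enzyme that makes the glutathione precursor, had 196 ± 13.3 CPM with the combination and 29.2 ± 1.81 CPM with ATRA (log2 2.74 ± 0.069), and its catalytic partner GCLC rose by a log2 of 0.71 ± 0.043. TXNRD1, thioredoxin reductase, averaged 1029 CPM with the combination and 399 CPM with ATRA (log2 1.37 ± 0.045). The cystine transporter SLC7A11 (54.6 CPM with the combination and 22.7 CPM with ATRA), the haem transporter SLC48A1 (109 CPM with the combination and 33.3 CPM with ATRA) and OSGIN1 (30.3 CPM with the combination and 5.41 CPM with ATRA) rose as well. SRXN1, sulfiredoxin, did not pass the test at its low level (1.07, 2.19 and 2.09 CPM with the combination, 1.16, 1.27 and 0.615 CPM with ATRA; adjusted p = 0.058). After the GC correction it was called higher (log2 0.90). The transketolase gene TKT had 854 ± 74.9 CPM with the combination and 869 ± 7.70 CPM with ATRA (log2 -0.025, adjusted p = 0.74; 0.11 after the GC correction, adjusted p = 0.0078).

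The iron and glutathione lists moved in both directions. Among 29 genes of haem and iron handling, 10 rose and 9 fell. FTL, the ferritin light chain, had 16056, 20229 and 17533 CPM with the combination and 9835, 10207 and 10153 CPM with ATRA (log2 0.83 ± 0.060), and ALAS1, the first enzyme of haem synthesis, rose to 579 CPM against 277 CPM with ATRA. Of 35 genes of glutathione and thioredoxin defence, 20 rose and 5 fell. GPX1, a glutathione peroxidase, was among those that fell, with 262, 329 and 281 CPM in combination libraries and 604, 604 and 609 CPM in ATRA libraries (log2 -1.06 ± 0.064). In the list of 10 genes of arsenic uptake, methylation and export, 5 rose and 3 fell. The efflux pump ABCC1 rose (log2 0.35 ± 0.059), and PNP, purine nucleoside phosphorylase, fell (log2 -0.62 ± 0.059). AHR, the dioxin receptor, had 28.4, 21.6 and 26.7 CPM with the combination and 9.67, 8.28 and 10.0 CPM with ATRA (log2 1.46 ± 0.12), and 4 of 8 genes of its pathway rose.

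The metallothioneins bind zinc and arsenic through their cysteines, and their promoters carry the metal response elements at which MTF1 acts. Promoter sequences from RefSeq (GRCh38.p14, the 250 bases before the annotated start, on the strand of the gene) are shown for MT2A and MT1X because both rose, and for GCLM as an NRF2 target that rose and holds a match. Capitals mark matches on either strand: the metal response element core (TGCACNC or TGCGCNC) in MT2A at chr16:56608334-56608583 and in MT1X at chr16:56682220-56682469, both on the plus strand, and the antioxidant response element core (TGAC and GCA separated by any 3 bases) in GCLM at chr1:93909431-93909680 on the minus strand.
MT2A: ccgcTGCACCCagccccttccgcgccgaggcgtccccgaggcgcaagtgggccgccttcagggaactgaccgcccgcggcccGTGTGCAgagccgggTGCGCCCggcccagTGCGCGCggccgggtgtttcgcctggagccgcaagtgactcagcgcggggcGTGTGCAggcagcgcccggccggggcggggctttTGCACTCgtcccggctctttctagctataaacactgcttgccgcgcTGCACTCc
MT1X: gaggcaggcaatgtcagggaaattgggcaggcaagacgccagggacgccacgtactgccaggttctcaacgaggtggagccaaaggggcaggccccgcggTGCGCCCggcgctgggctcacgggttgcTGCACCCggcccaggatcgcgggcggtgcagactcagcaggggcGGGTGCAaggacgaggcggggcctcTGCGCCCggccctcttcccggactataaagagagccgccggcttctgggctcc
GCLM: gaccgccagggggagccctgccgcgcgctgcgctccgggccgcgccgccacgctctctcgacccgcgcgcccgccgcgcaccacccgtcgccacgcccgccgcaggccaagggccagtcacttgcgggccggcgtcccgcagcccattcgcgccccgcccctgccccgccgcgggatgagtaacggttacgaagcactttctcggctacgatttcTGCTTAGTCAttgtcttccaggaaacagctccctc

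The MT2A window held 7 matches and the MT1X window 4. At least 1 match to the metal core was found in 24.83% of 35116 promoters and at least 3 in 1.58%, while the 4 metallothionein genes with a promoter entry had 3 to 8. Of those metallothioneins, MT1H and MT4 were left out of the expression test. The antioxidant core was found in GCLM and CBR1, 2 of 24 NRF2 list genes with an entry, and in 2.59% of all promoters. CBR1 was not called (log2 -0.053), while NQO1, TXNRD1 and SQSTM1 rose without a match in the window. A match describes the letters and is not a measured binding site.

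MT2A had 21.3, 33.0 and 24.4 CPM with the combination and 2.37, 3.42 and 2.42 CPM with ATRA (log2 3.25 ± 0.16, adjusted p = 2.1e-13), and the groups did not overlap. MT1X had 2.10, 2.41 and 1.84 CPM with the combination and 0.840, 1.02 and 0.763 CPM with ATRA (log2 1.27 ± 0.21), and MT1F 2.95 ± 0.755 CPM with the combination and 1.47 ± 0.126 CPM with ATRA. MT1E had 1.20, 1.77 and 1.59 CPM with the combination and 1.81, 1.55 and 1.44 CPM with ATRA (log2 -0.057, adjusted p = 0.83; 0.037 after the GC correction). The single treatments frame these values: MT2A was at 78.3, 82.8 and 82.9 CPM with ATO alone and at 20.6, 22.9 and 16.3 CPM in untreated HL-60. The ATRA libraries thus lay below all untreated ones, and the combination libraries below all ATO ones. Of 5 metallothioneins tested 4 rose, and the list's genes summed to 27.1 to 41.0 CPM with the combination and 6.23 to 7.43 CPM with ATRA. Among zinc and other metal transporters 10 of 21 rose and 3 fell. SLC30A1, the zinc exporter of the cell membrane, had 294, 249.5 and 282 CPM with the combination and 143, 144 and 148 CPM with ATRA (log2 0.93 ± 0.057), and the copper importer SLC31A1 averaged 159 CPM with the combination and 98.7 CPM with ATRA (log2 0.69 ± 0.046).

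ATF3, JUN, GDF15 and PPP1R15A rose with the combination. ATF3, a transcription factor of the integrated stress response, had 57.8, 65.5 and 68.6 CPM in combination libraries and 3.94, 5.81 and 5.68 CPM in ATRA libraries (log2 3.63 ± 0.13, adjusted p = 7.8e-16). JUN, a component of AP-1, had 259, 253 and 276 CPM with the combination and 32.3, 33.6 and 27.5 CPM with ATRA (log2 3.07 ± 0.076). GDF15, a secreted factor induced by cell stress, had 135, 145 and 143 CPM with the combination and 9.60, 8.72 and 8.50 CPM with ATRA (log2 3.98 ± 0.089). For these genes the lowest combination library was above the highest ATRA library. PPP1R15A, whose product GADD34 reverses the translational arrest of the integrated stress response, averaged 82.2 CPM with the combination and 20.6 CPM with ATRA (log2 2.00 ± 0.073). The list of ATF4 target genes moved in both directions, with 16 of 29 higher and 8 lower, and DDIT3, which encodes CHOP, rose by a log2 of 0.42 ± 0.067.

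Protein quality control genes rose in smaller steps. Of 21 heat shock genes 12 rose and 1 fell. The co-chaperones BAG3 (65.3 CPM with the combination, 28.1 CPM with ATRA; log2 1.22 ± 0.075) and DNAJB4 (24.6 CPM with the combination and 10.8 CPM with ATRA; log2 1.18 ± 0.11) rose, and the small heat shock protein gene HSPB1 fell to 41.7 CPM against 80.8 CPM with ATRA. HSPA1A, a common marker of proteotoxic stress, was left out of the test: it was at 0 CPM in 5 of the 6 libraries, and reads may be lost between it and its near-identical copy HSPA1B. DNAJB1 had 97.6 ± 3.58 CPM with the combination and 92.4 ± 3.17 CPM with ATRA (adjusted p = 0.23). After the GC correction it was called higher (log2 0.17). Among 36 proteasome genes 25 rose and 3 fell. PSMD14 and PSMC1, parts of the regulatory particle, rose by a log2 of 0.54 ± 0.051 and 0.53 ± 0.046 (0.20 and 0.54 after the GC correction). The immunoproteasome subunit PSMB9 fell (6.56, 9.03 and 9.84 CPM with the combination, 21.8, 21.0 and 20.2 CPM with ATRA; log2 -1.31 ± 0.12), as did PSMB8 (log2 -0.66 ± 0.060). In the autophagy list 16 of 33 genes rose and 6 fell, and GABARAPL1, of the protein family that decorates autophagosomes, had 88.9 ± 1.76 CPM with the combination and 31.7 ± 1.00 CPM with ATRA (log2 1.49 ± 0.060). Of 22 genes of the unfolded protein response 9 rose and 5 fell. XBP1, its splicing-controlled transcription factor, rose by a log2 of 0.39 ± 0.047, and calreticulin (CALR) fell (log2 -0.36 ± 0.036).

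**Figure D3:**
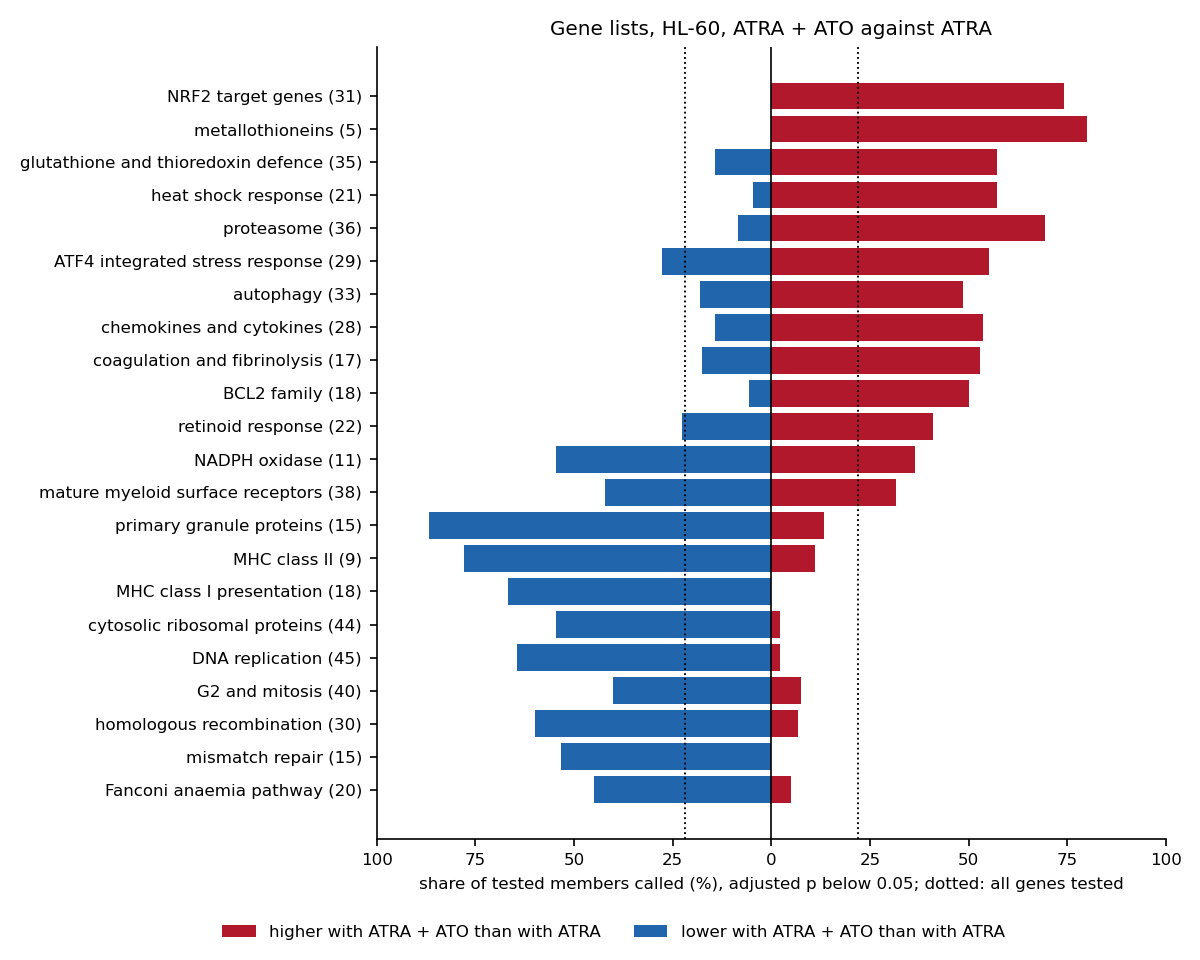
Share of tested members of selected gene lists (number tested in brackets) called higher (red, to the right) or lower (blue, to the left) with ATRA + ATO than with ATRA in HL-60; the dotted lines mark the shares over all genes tested, 22% and 21.9%. NRF2 targets, metallothioneins and proteasome genes lie mostly to the right, and primary granule, MHC class II and DNA replication genes mostly to the left.

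The plot of called shares by gene list sets each list beside the share over all genes. Genes of granulocyte maturation did not move as 1 group. Primary granule genes, which encode the proteases and peroxidase that early granulocytic cells make, fell in 13 of 15 cases and rose in 2, with a median log2 of -1.32. Without combination replicate 2 none rose. PRTN3, proteinase 3 (chr19:840960-848175), had 39.9, 51.0 and 34.4 CPM with the combination, against 674, 655 and 611 CPM with ATRA (log2 -3.95 ± 0.095, adjusted p = 7.4e-19). MPO, myeloperoxidase, had 62.5, 82.5 and 70.4 CPM with the combination and 337, 327 and 298 CPM with ATRA (log2 -2.16 ± 0.071), and ELANE, neutrophil elastase, 27.6, 39.0 and 28.1 CPM with the combination and 129, 125 and 121 CPM with ATRA (log2 -1.98 ± 0.096). The combination libraries lay below the ATRA libraries in all of these genes. AZU1 (log2 -2.62 ± 0.11) and RNASE2 (log2 -1.98 ± 0.096) fell as well. MS4A3, a marker of granulocyte-monocyte progenitors, averaged 0.748 CPM with the combination and 6.04 CPM with ATRA.

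Of 11 genes of specific and gelatinase granules 1 rose and 6 fell. CHI3L1, a chitinase-like protein of these granules, had 1359, 1493 and 1416 CPM with the combination and 3085, 3068 and 3266 CPM with ATRA (log2 -1.14 ± 0.046). LYZ, lysozyme, fell to 275 ± 7.90 CPM against 626 ± 9.37 CPM with ATRA. QPCT, glutaminyl cyclase, rose to 11.8 CPM against 5.68 CPM with ATRA. CAMP and MMP9, the late granule markers, stayed below 1 CPM in all 6 libraries.

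Of 38 mature myeloid surface receptors 12 rose and 16 fell, and after the GC correction 15 rose and 16 fell. CD38, a classical retinoic acid target, had 137, 133 and 141 CPM with the combination and 236, 241 and 242 CPM with ATRA (log2 -0.81 ± 0.063). ITGAM, which encodes the maturation marker CD11b, had 26.1, 29.6 and 27.9 CPM with the combination and 46.8, 44.4 and 37.8 CPM with ATRA (log2 -0.62 ± 0.092). Both genes were lower in every combination library than in any ATRA library. The chemokine receptor CCR2 had 4.15, 4.46 and 3.63 CPM with the combination and 54.1, 58.6 and 58.0 CPM with ATRA (log2 -3.79 ± 0.089), the integrin ITGAL averaged 74.3 CPM with the combination and 187 CPM with ATRA, and the nucleotide receptor P2RY2 72.1 CPM with the combination and 217 CPM with ATRA. TREM1, an amplifier of myeloid inflammatory responses, moved the other way, with 201, 211 and 208 CPM with the combination and 46.1, 47.3 and 44.6 CPM with ATRA (log2 2.17 ± 0.054). Of 11 NADPH oxidase genes 4 rose and 6 fell. The catalytic subunit CYBB had 1213 ± 76.9 CPM with the combination and 918 ± 6.56 CPM with ATRA (log2 0.40 ± 0.043), while the regulators RAC2 (log2 -0.79 ± 0.053) and PRKCD (log2 -0.89 ± 0.051) fell.

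Of 22 retinoid-responsive genes 9 rose and 5 fell, and after the GC correction 12 rose and 3 fell. TGM2, a transglutaminase strongly induced by ATRA, had 2388, 2872 and 2573 CPM with the combination and 916, 913 and 952 CPM with ATRA (log2 1.49 ± 0.065), and TNFAIP2 averaged 475 CPM with the combination and 220.3 CPM with ATRA (log2 1.11 ± 0.060). RDH10, a retinol dehydrogenase, rose by a log2 of 0.78 ± 0.075. The receptor gene RARA had 54.1 ± 5.54 CPM with the combination and 49.6 ± 1.10 CPM with ATRA (adjusted p = 0.17). After the GC correction it was called higher (log2 0.38). CYP26A1, the enzyme that clears retinoic acid, was too low to be tested (0.191, 0.181 and 0.165 CPM with the combination, 0.237, 0.211 and 0.212 CPM with ATRA), and CYP26B1 had 7.64 ± 0.493 CPM with the combination and 5.62 ± 0.525 CPM with ATRA (adjusted p = 0.12). After the GC correction CYP26B1 was called higher (log2 0.60).

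Among myeloid transcription factors 15 rose and 14 fell of 31. IRF8, which directs monocyte and dendritic cell fate (chr16:85898803-85922609), had 7.43, 8.81 and 7.15 CPM with the combination and 66.4, 67.7 and 65.8 CPM with ATRA (log2 -3.08 ± 0.071). MYB, which sustains immature haematopoietic cells, had 71.1, 66.3 and 64.6 CPM with the combination and 189.8, 194 and 188 CPM with ATRA (adjusted p = 5.8e-17). EGR2, a macrophage-associated factor, rose at a low level, with 9.73, 9.39 and 10.9 CPM with the combination and 0.904, 1.09 and 0.593 CPM with ATRA. CEBPE, which is needed for late granulocyte maturation, had 42.8, 52.9 and 43.5 CPM with the combination and 57.9, 53.2 and 52.7 CPM with ATRA. Its groups overlapped, its log2 fold change was -0.23 ± 0.076 (adjusted p = 0.016), and this call was lost with a value of 0.020 after the GC correction.

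Chemokine genes rose with the combination. CCL2, the monocyte attractant, had 783, 771 and 925 CPM with the combination and 102, 103 and 90.0 CPM with ATRA (log2 3.07 ± 0.088). CCL3 had 10.3, 14.6 and 14.8 CPM with the combination and 1.08, 1.09 and 0.890 CPM with ATRA (log2 3.69 ± 0.19), and CCL4 10.0, 10.8 and 13.9 CPM with the combination and 0.668, 0.493 and 0.721 CPM with ATRA (log2 4.21 ± 0.23). Both have near-identical copies (CCL3L and CCL4L genes), so reads may be divided among them. Over the list, 15 of 28 genes rose and 4 fell. CSF1, the macrophage growth factor, averaged 95.0 CPM with the combination and 23.4 CPM with ATRA. CCL5 had 17.5 ± 2.62 CPM with the combination and 14.7 ± 0.326 CPM with ATRA (adjusted p = 0.056). After the GC correction it was called higher (log2 0.34). Of 25 NF-kB subunits and feedback genes 10 rose and 4 fell. BCL3 (log2 1.97 ± 0.15) and the activation marker CD83 (log2 1.57 ± 0.064) rose, and the TNF receptor gene TNFRSF1B fell (log2 -0.73 ± 0.058). NLRP3, the inflammasome sensor, had 21.2, 18.0 and 17.6 CPM with the combination and 142, 139.8 and 143 CPM with ATRA (log2 -2.90 ± 0.067).

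Prostaglandin and coagulation genes included strong single rises. PTGES, the inducible prostaglandin E synthase, had 136, 151 and 161 CPM with the combination and 13.5, 13.4 and 15.0 CPM with ATRA (log2 3.42 ± 0.092). Of 12 genes of leukotriene and prostaglandin synthesis 6 rose and 4 fell. SERPINB2, a plasminogen activator inhibitor, averaged 13.6 CPM with the combination and 2.45 CPM with ATRA. ANXA2, a plasminogen receptor associated with APL bleeding, rose to 162 ± 8.25 CPM against 78.0 ± 2.68 CPM with ATRA, and PLAU, the urokinase gene, fell to 148 ± 6.74 CPM against 239 ± 7.39 CPM with ATRA. Over 17 coagulation and fibrinolysis genes 9 rose and 3 fell.

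Antigen presentation genes fell. Of 18 MHC class I presentation genes 12 fell and none rose, with a median log2 of -0.49. Without combination replicate 2, 13 fell and 1 rose. HLA-B (chr6:31269491-31357188) had 53.2, 54.5 and 51.2 CPM with the combination and 349, 353 and 351 CPM with ATRA (log2 -2.73 ± 0.064), and the groups were far apart. HLA-E (log2 -1.43 ± 0.061), the peptide transporter TAP1 (log2 -1.27 ± 0.074) and B2M, the shared light chain (log2 -0.53 ± 0.038), fell too. HLA genes are similar to each other and vary between genomes, so reads may be missed or divided among them. Of 9 class II genes 7 fell and 1 rose, with a median log2 of -1.88. CD74, the invariant chain, had 108, 131 and 111 CPM with the combination and 442, 446 and 401 CPM with ATRA (log2 -1.88 ± 0.065). CIITA, the master regulator of class II genes, had 6.64, 8.13 and 5.74 CPM with the combination and 35.2, 32.4 and 31.3 CPM with ATRA (log2 -2.25 ± 0.094). HLA-DRA averaged 23.6 CPM with the combination and 76.9 CPM with ATRA. The Y box GATTGG, a part of class II promoters, was found in 8 of the 11 class II genes with a promoter entry and in 14.07% of all promoters. Of 39 interferon-stimulated genes 9 rose and 8 fell. Among those that fell were XAF1 (log2 -1.56 ± 0.20) and CMPK2 (log2 -1.12 ± 0.12).

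DNA replication genes fell by small amounts. Of 45 tested 29 fell and 1 rose, with a median log2 of -0.24 (34 and 0 after the GC correction). MCM7, a subunit of the replicative helicase, had 192, 207 and 208 CPM with the combination and 418, 434 and 431 CPM with ATRA (log2 -1.08 ± 0.045). Its partner MCM3 averaged 331 CPM with the combination and 584 CPM with ATRA (log2 -0.82 ± 0.039), and POLD1, the catalytic subunit of DNA polymerase delta, 60.4 CPM with the combination and 114 CPM with ATRA (log2 -0.91 ± 0.071). All combination libraries were below all ATRA libraries for these genes. Of 40 G2 and mitosis genes 16 fell and 3 rose, and after the GC correction 27 fell and 1 rose. Without combination replicate 2, 17 of them fell and 6 rose. MKI67, the proliferation marker, had 579, 495 and 606 CPM with the combination and 789, 802 and 765 CPM with ATRA (log2 -0.49 ± 0.063), while CDK1, the mitotic kinase, rose to 274 ± 18.7 CPM against 199 ± 3.21 CPM with ATRA. RRM2, a subunit of ribonucleotide reductase, had 293 ± 2.74 CPM with the combination and 307 ± 6.56 CPM with ATRA (adjusted p = 0.2). After the GC correction it was called lower (log2 -0.11). Among 29 G1 regulators and CDK inhibitors 7 rose and 14 fell. CDKN1A, which encodes p21, had 2.90, 3.61 and 3.68 CPM with the combination and 1.08, 0.987 and 1.65 CPM with ATRA (log2 1.46 ± 0.24). CCND2, cyclin D2, averaged 4.54 CPM with the combination and 12.3 CPM with ATRA (log2 -1.42 ± 0.12). MYC had 236, 275 and 253 CPM with the combination and 373, 356 and 358 CPM with ATRA (log2 -0.51 ± 0.052), and its antagonist MXD1 rose (log2 1.09 ± 0.072).

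DNA repair lists, the subject of the series' title, moved mostly by less than 2-fold. In homologous recombination 18 of 30 fell and 2 rose, with a median log2 of -0.25. BRCA1 had 128, 104 and 129.9 CPM with the combination and 139, 139.8 and 136 CPM with ATRA (log2 -0.20 ± 0.074, adjusted p = 0.033), and RMI2, part of the complex that dissolves recombination intermediates, fell (10.4 CPM with the combination, 20.8 CPM with ATRA). NBN, the damage sensor of the MRN complex, rose to 142 ± 12.9 CPM against 98.5 ± 4.22 CPM with ATRA. In the Fanconi anaemia pathway 9 of 20 fell and 1 rose, and FANCE averaged 8.45 CPM with the combination and 20.0 CPM with ATRA (log2 -1.24 ± 0.093). In mismatch repair 8 of 15 fell and none rose. In base excision and single-strand break repair 11 of 26 fell and 5 rose. PARP1, the break sensor of that pathway, had 339, 348 and 333 CPM with the combination and 477, 471 and 460.2 CPM with ATRA (log2 -0.46 ± 0.038).

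In end joining 5 of 18 genes fell and 4 rose. The kinase PRKDC averaged 737 CPM with the combination and 986 CPM with ATRA (log2 -0.42 ± 0.053), and the ligase LIG4 54.9 CPM with the combination and 32.0 CPM with ATRA (log2 0.78 ± 0.094). In nucleotide excision repair 5 of 21 fell and 7 rose. Of 26 genes of damage checkpoint signalling 13 fell and 3 rose, against 11 and 5 without combination replicate 2 and 12 and 1 after the GC correction. The checkpoint kinase CHEK1 had 62.0 ± 2.95 CPM with the combination and 69.6 ± 1.10 CPM with ATRA (log2 -0.17 ± 0.052, adjusted p = 0.012), the histone variant gene H2AX 29.9 ± 3.79 CPM with the combination and 46.7 ± 3.56 CPM with ATRA (log2 -0.64 ± 0.081), and the kinase ATM 196 ± 24.6 CPM with the combination and 203 ± 3.45 CPM with ATRA (adjusted p = 0.62). After the GC correction ATM was called lower (log2 -0.25).

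Apoptosis genes rose in part. Of 18 BCL2 family genes 9 rose and 1 fell. PMAIP1, which encodes the death-promoting protein NOXA, had 216, 195 and 222 CPM with the combination and 70.0, 65.1 and 62.7 CPM with ATRA (log2 1.68 ± 0.067), and BMF, another such member, averaged 86.9 CPM with the combination and 36.1 CPM with ATRA (log2 1.27 ± 0.082). The survival gene MCL1 rose to 459 ± 24.1 CPM against 328 ± 4.74 CPM with ATRA, and BAX had 78.0 ± 9.43 CPM with the combination and 73.5 ± 4.50 CPM with ATRA (adjusted p = 0.38). After the GC correction BAX was called higher (log2 0.27). BTG2, an antiproliferative gene, rose by a log2 of 1.39 ± 0.063 and MDM2, a ubiquitin ligase gene, by 0.62 ± 0.076, and DDB2, a damage recognition gene, fell (log2 -0.90 ± 0.11). Of 27 death receptor and caspase genes 12 rose and 9 fell. TNFRSF10B, a TRAIL receptor, rose by a log2 of 0.79 ± 0.063. PML had 33.5 ± 3.96 CPM with the combination and 40.1 ± 0.860 CPM with ATRA (log2 -0.26 ± 0.082, adjusted p = 0.013), and this call was lost at -0.085 after the GC correction. The PML body component SP140 had 37.8, 35.7 and 36.8 CPM with the combination and 8.53, 9.62 and 8.41 CPM with ATRA (log2 2.05 ± 0.088).

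Growth and metabolism lists mostly moved by small amounts. Cytosolic ribosomal protein genes fell in 24 of 44 cases and rose in 1 (21 and 5 after the GC correction), with a median log2 of -0.15. In ribosome biogenesis 14 of 34 fell and 6 rose. Of 13 mRNAs of the mitochondrial genome 8 fell and 1 rose, beside a mitochondrial share of all counts of 5.24% to 6.03% with the combination and 5.96% to 6.66% with ATRA. In glycolysis 8 of 25 rose and 5 fell, against 7 and 7 without combination replicate 2 and 11 and 2 after the GC correction. PKM, a pyruvate kinase gene, was among those that rose (log2 0.62 ± 0.041). Of 32 genes of cholesterol and fatty acid synthesis 10 rose and 12 fell, and HMGCS1, an early enzyme of the cholesterol pathway, had 340.3 ± 23.3 CPM with the combination and 162 ± 4.45 CPM with ATRA (log2 1.07 ± 0.053).

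Other protein-coding genes among the 15 largest rises and falls had varied roles. ITGB3, integrin beta 3, had 6.61, 5.40 and 6.73 CPM with the combination and 0.517, 0.370 and 0.424 CPM with ATRA (log2 3.84 ± 0.34), and AKR1C3, an aldo-keto reductase, 49.0, 54.9 and 50.4 CPM with the combination and 3.64, 3.73 and 4.47 CPM with ATRA (log2 3.70 ± 0.11). Both rose without overlap between the groups. Among the falls, TSPOAP1 averaged 2.06 CPM with the combination and 31.8 CPM with ATRA (log2 -3.94 ± 0.093), the receptor tyrosine kinase EPHA1 0.738 CPM with the combination and 7.06 CPM with ATRA (log2 -3.24 ± 0.18), and the sialic acid receptor SIGLEC6 2.32 CPM with the combination and 20.9 CPM with ATRA (log2 -3.19 ± 0.093). AGRN, agrin, had 1.79 CPM with the combination and 13.6 CPM with ATRA (log2 -2.90 ± 0.15), and the calcium channel subunit CACNA2D3 2.68 CPM with the combination and 18.9 CPM with ATRA (log2 -2.83 ± 0.12). INKA1 (log2 -3.32 ± 0.20) and ZDHHC11B (log2 -3.72 ± 0.27) fell as well, and ZDHHC11B has a close copy, ZDHHC11, with which it may share reads.

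The ATO effect was next set beside that in cells without ATRA. ATO alone changed 4554 genes against untreated cells (28.7%: 16.5% higher and 12.1% lower), a comparison that shares no library with the one above. Of these, 678 (4.27%) differed at least 2-fold, 534 (3.36%) higher and 144 (0.906%) lower, against 583 and 636 when ATRA was present. The difference between the ATO effects with and without ATRA, tested as an interaction, was called for 5170 genes (32.5%), 2287 (14.4%) with a higher and 2883 (18.1%) with a lower value with ATRA. At least 2-fold interactions were higher for 219 genes (1.38%) and lower for 728 (4.58%). Of those called, 44.2% were higher, and 34.8% when libraries were scaled by their sizes alone. Both ATO effects were called for 2777 genes, 29.8% of those changed with ATRA and 45.7% of those changed without, and 2082 of them had the same sign and 695 opposite signs. Across 15895 genes Pearson's r between the effects was 0.30 and Spearman's rho 0.26, given as a description of genes that share libraries within each effect. The ATO effect without ATRA had a Spearman's rho of 0.15 with GC content, the opposite sign to that with ATRA, and the part of GC content in the interaction was not tested beyond a corrected count of 4584 genes.

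**Figure D4:**
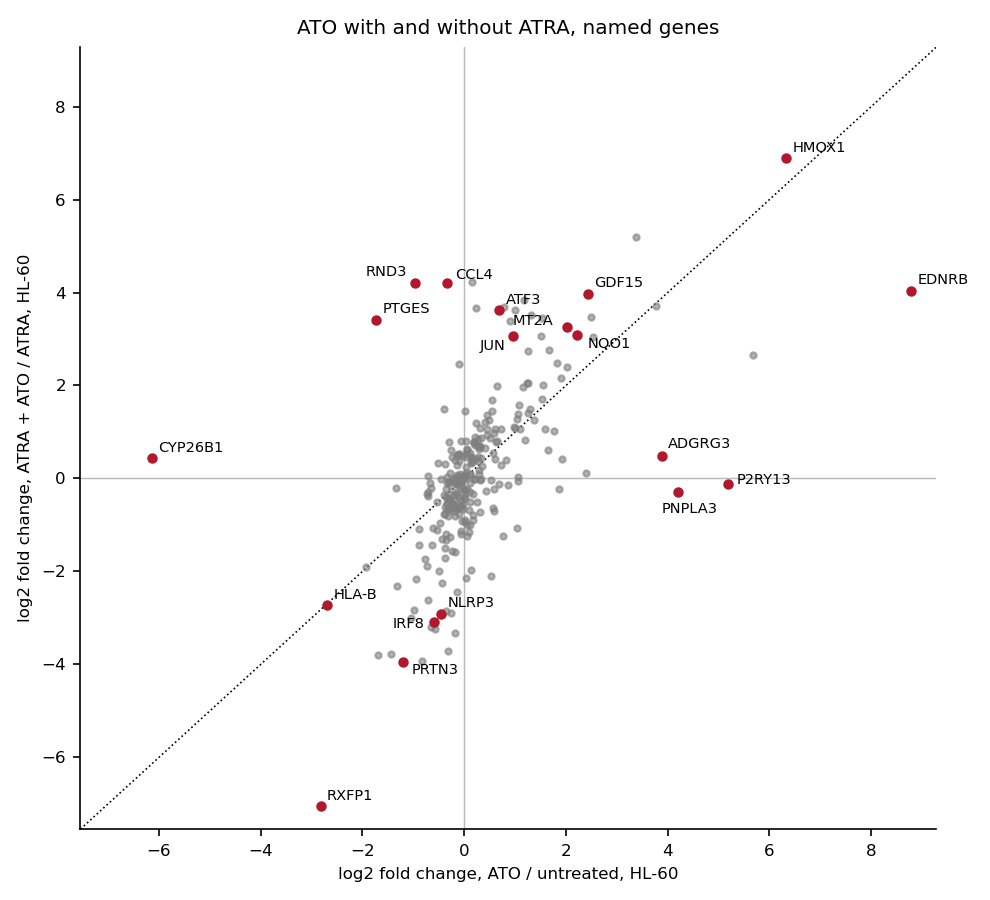
Log2 fold change of ATRA + ATO over ATRA (y axis) against ATO over untreated (x axis) in HL-60 for 276 named genes; the dotted line marks equal effects. HLA-B and HMOX1 lie near the line, JUN, ATF3, CCL4 and PTGES above it, and IRF8, NLRP3 and PRTN3 below it; values far out on the x axis (CYP26B1, EDNRB, P2RY13, PNPLA3) rest on groups at or near 0 and depend on the prior count of the fit.

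The antioxidant genes responded with and without ATRA, as the plot of both ATO effects shows. HMOX1 had 74.2, 70.0 and 85.5 CPM with ATO alone and 0.986, 0.860 and 1.02 CPM in untreated cells, a log2 of 6.33 against 6.90 with ATRA (interaction 0.57 ± 0.19, adjusted p = 0.028). GCLM (interaction 1.48 ± 0.093), TXNRD1 (0.92 ± 0.062), NQO1 (0.87 ± 0.082) and MT2A (1.23 ± 0.21) rose more with ATRA, and FTL less (-0.36 ± 0.084). Of the NRF2 targets 23 rose and 0 fell with ATO alone, and the interaction was called higher for 15 and lower for 4. HLA-B fell in both settings: 27.7, 25.8 and 21.9 CPM with ATO and 161, 171 and 156 CPM untreated gave a log2 of -2.69, against -2.73 with ATRA. Its interaction was -0.035 ± 0.088 (adjusted p = 0.81), a value whose sign changed after the GC correction (0.21, adjusted p = 0.041).

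For heat shock genes the directions with and without ATRA were opposite. Heat shock genes rose in 12 cases and fell in 1 with ATRA, and without it rose in 1 and fell in 12, with 16 of 21 interactions higher and 1 lower. Over all genes tested, 16.5% were higher and 12.1% lower with ATO alone. Ribosome biogenesis genes fell in 30 of 34 cases with ATO alone against 14 with ATRA (19 interactions higher, 0 lower). Mature myeloid receptors rose in 17 and fell in 5 cases with ATO alone, and 23 of 38 interactions were lower and 3 higher. Among them ITGAM rose with ATO alone, with 11.0, 9.16 and 9.24 CPM against 6.38, 7.35 and 5.91 CPM in untreated cells (log2 0.58, adjusted p = 2.9e-04), and fell with ATRA present (interaction -1.20 ± 0.14). CEBPE did likewise (log2 0.59 with ATO alone; interaction -0.83 ± 0.11), within the limit on its fall given above. CD38 had 13.4, 13.5 and 10.6 CPM with ATO and 15.0, 16.9 and 14.9 CPM in untreated cells (log2 -0.32), and its interaction was -0.49 ± 0.099. CYBB rose in both settings, less with ATRA (interaction -0.41 ± 0.062).

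Granule protease genes had lower interactions. PRTN3 had 501, 486 and 466 CPM with ATO and 1091, 1216 and 1042 CPM in untreated cells (log2 -1.20), and its interaction was -2.74 ± 0.12. ELANE had 193, 175 and 170.3 CPM with ATO and 177, 166 and 146 CPM untreated (log2 0.14, adjusted p = 0.26; interaction -2.12 ± 0.13), and MPO fell more with ATRA (interaction -1.21 ± 0.095). IRF8 (-2.49 ± 0.092), NLRP3 (-2.46 ± 0.089), TSPOAP1 (-3.10 ± 0.12), CCR2 (-2.10 ± 0.12) and CIITA (-1.82 ± 0.12) had interactions in the same direction. Among replication and repair genes the interaction was lower for 22 of 45 replication genes and higher for 2, and PARP1 was at -0.26 ± 0.053.

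CCL4, PTGES, PHLDA1, MMP1 and RND3 rose with ATO where ATRA was present, did not pass the test without it, and had a called interaction. CCL4 had 0.0828, 0.0369 and 0.0852 CPM with ATO and 0.141, 0.0374 and 0.0886 CPM in untreated cells (interaction 4.55 ± 0.72), and PTGES 0.0207, 0 and 0 CPM with ATO and 0, 0.0748 and 0 CPM untreated. PHLDA1, the collagenase gene MMP1 and RND3 were among the largest rises with the combination. PHLDA1 had 80.3, 76.1 and 92.3 CPM with the combination and 6.46, 6.34 and 6.82 CPM with ATRA, against 0.911, 1.11 and 1.66 CPM with ATO and 0.751, 1.35 and 0.974 CPM untreated (interaction 3.44 ± 0.26). MMP1 had 10.8, 9.57 and 12.6 CPM with the combination and 0.431, 0.529 and 0.805 CPM with ATRA (interaction 4.07 ± 0.63), and RND3 7.38, 6.42 and 7.64 CPM with the combination and 0.172, 0.458 and 0.509 CPM with ATRA. CCL3 (2.90 ± 0.36), ATF3 (2.94 ± 0.19), CDKN1A (0.92 ± 0.34) and TGM2 (1.88 ± 0.65) also had higher interactions. TGM2 was below 1 CPM in every ATO and untreated library.

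Several of the largest interactions belonged to genes near 0 in at least 1 group, where fitted values depend on the prior count and no fold is given at this point. CYP26B1 was at 0, 0 and 0 CPM with ATO and 0.423, 0.112 and 0.0443 CPM untreated. P2RY13, a nucleotide receptor, had 9.34, 11.1 and 10.4 CPM with the combination and 10.4, 12.1 and 11.3 CPM with ATRA, beside 0.0414, 0.0369 and 0.213 CPM with ATO and 0, 0 and 0 CPM untreated. EDNRB, an endothelin receptor, had 6.26, 6.78 and 6.21 CPM with the combination and 0.388, 0.317 and 0.466 CPM with ATRA, beside 1.41, 1.03 and 1.06 CPM with ATO and 0, 0 and 0 CPM untreated. PNPLA3 and ADGRG3 were likewise below 2 CPM in every library without ATRA. RXFP1, the relaxin receptor, was at 0, 0 and 0 CPM with the combination and 0.280, 0.529 and 0.212 CPM with ATRA, beside 0.952, 0.757 and 0.852 CPM with ATO and 5.75, 5.93 and 6.44 CPM untreated.

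In NB4, ATO added to ATRA changed 6219 of 16370 genes (38%), and 44.3% of these were higher (68.4% when libraries were scaled by their sizes alone). At least 2-fold differences were found for 1245 genes (7.61%), 887 higher (5.42%) and 358 lower (2.19%). This comparison shares no library with that of HL-60. Of 14562 genes tested in both lines 3317 were called in both, 32.6% of the HL-60 calls and 36.1% of the NB4 calls, 2144 with the same sign and 1173 with opposite signs. Across these genes Pearson's r between the lines was 0.23 and Spearman's rho 0.20. The difference between lines was called for 5624 of 17930 genes (31.4%: 16% higher in HL-60 and 15.3% lower), of which 51.1% were higher in HL-60 (31.2% with library sizes alone, which moved the median of all genes by -0.14), so that directions below are relative to the TMM scaling. It was at least 2-fold for 1362 genes (7.6%), 418 higher (2.33%) and 944 lower (5.26%).

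**Figure D5:**
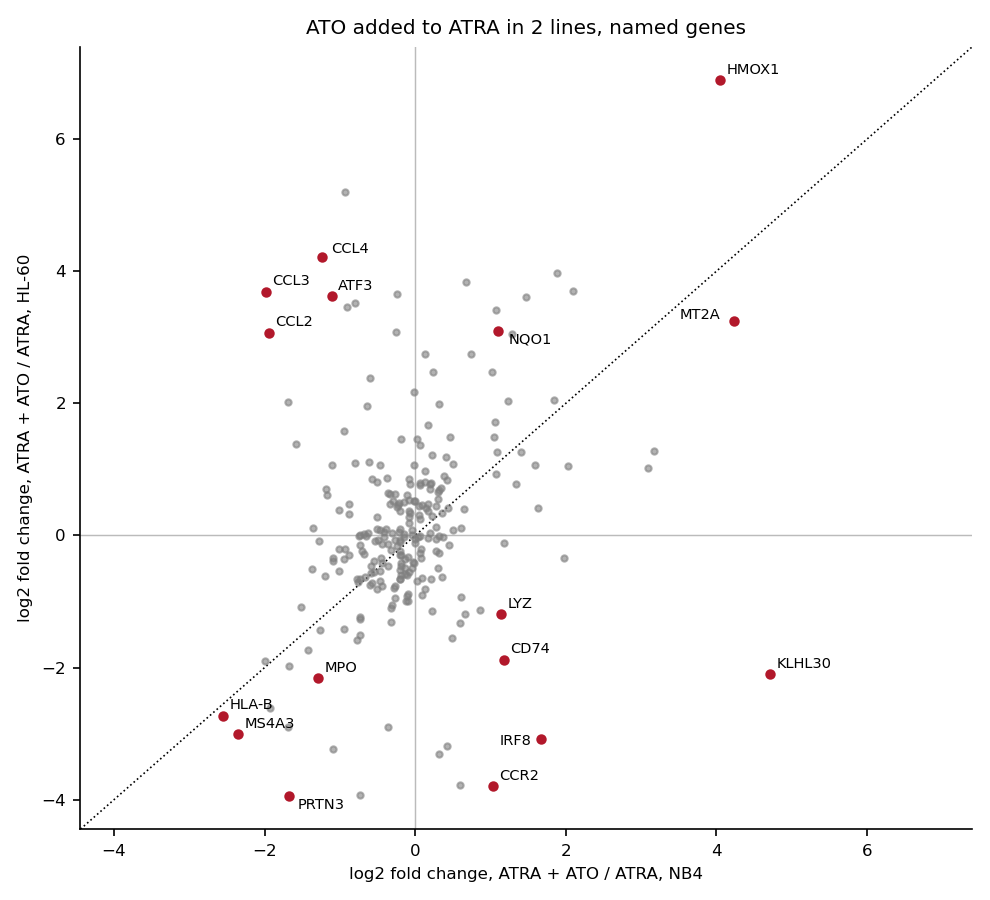
Log2 fold change of ATRA + ATO over ATRA in HL-60 (y axis) against NB4 (x axis) for 254 named genes; the dotted line marks equal effects. HMOX1, NQO1 and MT2A are positive in both lines and HLA-B, MPO and PRTN3 negative in both, while CCL2, CCL3, CCL4 and ATF3 are positive in HL-60 and negative in NB4, and IRF8, CD74 and LYZ the reverse.

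Antioxidant genes rose further in HL-60. HMOX1 in NB4 had 29.4, 28.9 and 28.4 CPM with the combination and 1.81, 1.16 and 2.24 CPM with ATRA (log2 4.05, against 6.90 in HL-60; difference 2.81 ± 0.22, adjusted p = 1.3e-11). NQO1 (difference 1.96 ± 0.11), GCLM (1.97 ± 0.10) and TXNRD1 (1.26 ± 0.064) followed the same order, and of 31 NRF2 targets 19 had a higher and 1 a lower value in HL-60. The metallothioneins had the opposite order. MT2A in NB4 had 357, 404 and 369 CPM with the combination and 21.7, 16.8 and 21.6 CPM with ATRA (log2 4.23; difference -1.02 ± 0.20), and MT1X 12.1, 13.0 and 13.5 CPM with the combination and 1.28, 1.24 and 1.72 CPM with ATRA (difference -1.94 ± 0.26).

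The chemokines CCL3 and CCL4, which rose in HL-60, fell in NB4. CCL3 in NB4 had 0.310, 1.15 and 1.02 CPM with the combination and 2.88, 3.69 and 3.23 CPM with ATRA (difference 5.64 ± 0.51), CCL4 3.87, 4.90 and 4.04 CPM with the combination and 10.3, 7.89 and 11.9 CPM with ATRA (5.41 ± 0.35), and the copy CCL4L2 had a difference of 6.09 ± 0.65. ATF3 fell in NB4 to 2.00 CPM against 4.32 CPM with ATRA (difference 4.69 ± 0.25). EGR2 (4.28 ± 0.46) also had a higher value in HL-60. In the other direction, IRF8 had 3.23, 4.07 and 2.95 CPM with the combination and 0.934, 1.24 and 1.04 CPM with ATRA in NB4, a rise (difference -4.80 ± 0.19), and PLD4, an endolysosomal exonuclease, had a difference of -4.42 ± 0.30. ITGAM (-1.01 ± 0.12), CD38 (-0.98 ± 0.083) and CEBPE (-0.55 ± 0.10) were lowered by ATO in HL-60 relative to NB4. MYC fell further in NB4 (115, 122 and 103 CPM with the combination, 304, 270.3 and 302 CPM with ATRA; difference 0.82 ± 0.088).

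HLA-B fell in both lines, with 0.885, 1.28 and 1.04 CPM in NB4 with the combination and 6.00, 4.77 and 8.08 CPM with ATRA (difference -0.22 ± 0.21, adjusted p = 0.5). PRTN3 and MPO fell in both. ELANE, CIITA, KIAA1614, KLHL30, TCF7 and CCR2 were below 1 CPM in every NB4 library of the 2 groups, and DDIT4L too, so the size of their differences depends on the prior count. STC1, a secreted glycoprotein, was near 0 in HL-60 and had 1.37, 0.987 and 1.02 CPM with the combination and 9.60, 8.12 and 17.9 CPM with ATRA in NB4. Heat shock genes (16 of 21 differences higher in HL-60, 1 lower), ribosome biogenesis genes (27 higher, 0 lower) and mRNAs of the mitochondrial genome (13 higher, 0 lower) were among the lists with most differences in 1 direction. Over all genes tested, 16% of differences were called higher in HL-60 and 15.3% lower.

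Markers of other cell types were low, with exceptions. Of 12 lymphoid markers 7 were tested, 3 rose and 1 fell, and their summed level was 93.6 to 116 CPM with the combination and 98.3 to 99.8 CPM with ATRA. NKG7 made up most of that sum (74.9, 96.7 and 82.9 CPM with the combination, 93.6, 94.1 and 94.8 CPM with ATRA), and the defining markers CD3D, CD3E and CD3G were below 1 CPM. IL7R, the interleukin 7 receptor, rose to 14.0, 13.5 and 17.0 CPM against 1.34, 1.69 and 1.23 CPM with ATRA (log2 3.38 ± 0.21). Of 12 monocyte and macrophage markers 6 were tested, 2 rose and 2 fell: CD14 had 2.95, 2.53 and 2.17 CPM with the combination and 1.53, 1.16 and 1.53 CPM with ATRA, and CSF1R 2.54, 3.49 and 3.35 CPM with the combination and 7.97, 7.22 and 6.25 CPM with ATRA. The 10 myeloblast markers tested all fell (9 without combination replicate 2), and that list overlaps the granule genes described above.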

How the data were processed

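Poly(A)-selected RNA from HL-60 and NB4 cultures was sequenced as paired-end reads, per the labels' protocols. The authors deposited raw counts per gene for 24 libraries. The submitters' processing notes name fastp, HISAT2, GRCh38, featureCounts and DESeq2, without versions or settings. Whether counting used strand is not given in the sources used here. Of the counts from 1 to 9, 74.4% were even, so both mates of a pair may have been counted; with the counts halved 7013 genes were called.

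The counts were tested with edgeR 4.0.16 (R 4.3.3), by the quasi-likelihood test with filterByExpr, TMM scaling and Benjamini-Hochberg adjustment, at an adjusted p below 0.05. The 12 HL-60 libraries entered 1 fit, which also gave the interaction. The 12 NB4 libraries had a fit of their own, and all 24 entered the fit of the line difference. GENCODE v29 gave gene types, coordinates and the transcripts used for GC content, and gene symbols came from a separate reference list. No label says that replicates were separate cultures, so p-values measure the spread between these libraries, which may be technical.

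Named genes were the 15 largest called rises and falls among protein-coding genes (with a group average no lower than 5 CPM on the higher side and the same sign in 3 batches), a fixed panel, up to 4 called members of each list with the smallest p, its uncalled member with the highest level, and the 5 largest called interactions and line differences each way. Some genes that this rule names are not reported here. The comparison and lists were chosen with earlier results of these data known. The labels give the replicate number as a batch, so same-numbered libraries are paired by their labels. Residual correlations of same-numbered libraries were -0.00807 to 0.0589 over 18 pairs. Alternatives were other tools, scalings and filters, the replicate block, leaving out libraries and, chosen after the data had been seen, a GC correction.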

Additional observations from a re-analysis of the deposited data

Results flagged for a closer look

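The ATO effect with ATRA differed from that without ATRA, by the interaction in edgeR's quasi-likelihood test, for these genes of the text (log2, with ATRA minus without). Higher values with ATRA were HMOX1 0.57, NQO1 0.87, GCLM 1.48, TXNRD1 0.92, MT2A 1.23, ATF3 2.94, CCL4 4.55, CCL3 2.90, PHLDA1 3.44, MMP1 4.07, RND3 5.17, PTGES 5.15, TGM2 1.88, CYP26B1 6.58 and CDKN1A 0.92. Lower values with ATRA were FTL -0.36, EDNRB -4.74, P2RY13 -5.31, PNPLA3 -4.48, RXFP1 -4.22, ADGRG3 -3.41, PRTN3 -2.74, MPO -1.21, ELANE -2.12, IRF8 -2.49, NLRP3 -2.46, TSPOAP1 -3.10, CIITA -1.82, CCR2 -2.10, ITGAM -1.20, CD38 -0.49, CEBPE -0.83, CYBB -0.41 and PARP1 -0.26. CYP26B1, RND3, PTGES, CCL4, EDNRB, P2RY13 and PNPLA3 rest on groups at or near 0 CPM without ATRA, and RXFP1 on a combination group at 0, so the size of their values depends on the prior count. TGM2 and ADGRG3 were also low in every library without ATRA. For CYP26B1, P2RY13 and PNPLA3 the ATO effect with ATRA was itself not called.

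The effect of ATO added to ATRA differed between HL-60 and NB4, by the line difference in the same test over all 24 libraries (log2, HL-60 minus NB4). Higher values in HL-60 were HMOX1 2.81, NQO1 1.96, GCLM 1.97, TXNRD1 1.26, CCL4 5.41, CCL3 5.64, CCL4L2 6.09, DDIT4L 6.29, STC1 5.04, ATF3 4.69, EGR2 4.28 and MYC 0.82. Lower values in HL-60 were MT2A -1.02, MT1X -1.94, CCR2 -4.87, IRF8 -4.80, PLD4 -4.42, CIITA -7.59, KIAA1614 -7.59, KLHL30 -6.79, ELANE -5.96, TCF7 -5.87, ITGAM -1.01, CD38 -0.98 and CEBPE -0.55. CIITA, KIAA1614, KLHL30, ELANE, TCF7, CCR2 and DDIT4L were at or near 0 CPM in NB4 and STC1 in HL-60. The causes of these differences were not tested.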

How the results depend on the processing

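With the replicate block, 7073 genes were called for the combination against ATRA, 4725 for ATO against untreated, 5321 for the interaction, 5919 for NB4 and 5494 for the line difference, and no count of calls moved by over 1.5 times. DESeq2 called 7207, limma-voom 6970, and the GC correction 6776 genes in the main comparison. The count for ATO against untreated moved to 3020 at an adjusted p below 0.01. Leaving out 1 library at a time gave 6136 to 7422 genes for the combination against ATRA (2964 to 3599 higher, 3104 to 3823 lower, 1133 to 1316 at least 2-fold different), 3586 to 4201 for ATO against untreated, 4502 to 6208 for the interaction, 5248 to 6113 for NB4 and 5056 to 5924 for the line difference. Among named genes called before or after the GC correction, the sign changed for CEBPE (0.020), TKT (0.11), SIRPA (0.090), RBL1 (-0.16), GAPDH (0.092), and it changed for the HLA-B interaction (0.21). The sign of 14 named genes called in neither fit changed too. With the GC correction and the replicate block together the values were 0.019, 0.11, 0.090, -0.16, 0.092 and 0.21, and the cause was not tested. Under the GC correction alone, 244 of 276 named genes stayed on their side of the threshold, 2 lost the call and 25 gained it, beside the 5 listed with a changed sign. Of 4682 values of named genes under the 17 other settings, 4594 stayed on their side of the threshold, 29 lost the call and 59 gained it. The sign changed in 45 of them, all of genes called under neither setting. Counts of list members moved as well. Higher and lower members after the GC correction were 17 and 5 for ATF4 targets, 12 and 2 for the BCL2 family, 0 and 13 for the Fanconi anaemia pathway and 1 and 13 for primary granule proteins. Without combination replicate 2 they were 9 and 2 for the BCL2 family, 2 and 29 for DNA replication, 12 and 2 for heat shock genes, 2 and 5 for specific and gelatinase granules and 3 and 2 for lymphoid markers. Genes with few counts are limited by depth.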
